A study of Mus musculus with 19 samples.

Results

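The genes described here are 10 mouse contractile isoform genes whose use in striated muscle changes during development: the actins Acta1 and Actc1, the myosin heavy chains Myh6, Myh7 and Myh7b, the atrial myosin light chains Myl4 and Myl7, and the troponin subunits Tnni1, Tnni3 and Tnnt1. They were taken by name, as a list of developmentally switched actin, myosin and troponin genes, from the 55536 genes counted in each library. Each was set against its partner isoform within the same library. The partners Tnnt2, Myl2 and Myl3 are 3 further genes that serve only as denominators.

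Ventricular RNA was sequenced from mice with an inducible, heart-specific deletion of Mpc1 (KO) and from wild-type mice (WT), 16 or 8 weeks after the deletion was induced in adult life. The product of Mpc1 belongs to the carrier that takes pyruvate across the inner mitochondrial membrane. The groups were KO-16 (5 libraries, Mpc1 knockout, 16 weeks), WT-16 (5 libraries, wild type, 16 weeks), KO-8 (4 libraries, Mpc1 knockout, 8 weeks) and WT-8 (5 libraries, wild type, 8 weeks). The labels used here do not name the promoter that drives the recombinase, the inducing agent, the strain or the age of the mice, and do not say that wild-type mice received the inducing agent. Nor do they state that libraries and animals correspond one to one, and p-values here therefore refer to variation among libraries, part of which may be technical. The tissue is whole ventricle, in which a deletion in 1 cell type leaves Mpc1 RNA of the other cells.

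In background, the sarcomere pulls thin filaments, built from actin with tropomyosin and troponin, along thick filaments of myosin. Cardiac muscle can build each of these from alternative isoform genes. The mouse heart replaces the skeletal actin Acta1 by the cardiac actin Actc1, the slow myosin Myh7 by the faster Myh6 and the slow skeletal troponin I Tnni1 by the cardiac troponin I Tnni3 around birth. Renewed expression of Acta1 and Myh7 in the adult ventricle is widely used as a marker of cardiac stress in rodents. Myl4 and Myl7 are expressed throughout the early heart tube and remain in the atria of the adult mouse.

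Library totals were 9538130 to 26914074 counted read pairs in KO-16, 8632127 to 19678367 in WT-16, 16528626 to 19466260 in KO-8 and 17420121 to 27516660 in WT-8. The 18S ribosomal RNA gene CT010467.1 took 1.71% to 30.0% of the counts in KO-16 and 6.88% to 39.1% in WT-16, against at most 0.0666% in any 8-week library. Levels are in CPM, the counts of a gene divided by the library total after scaling with TMM factors over all 19 libraries, and in CPM per kilobase (kb) where genes are compared with each other. The 16-week and the 8-week libraries form separate sets with different 18S shares, so time and library set cannot be told apart when a level at 16 weeks is set beside one at 8 weeks. Mpc1 had 15.1 ± 6.99 CPM in KO-16 and 69.6 ± 9.29 CPM in WT-16 (SD, n = 5 each). Its log2 fold change was -2.21 (SE 0.25, adjusted p = 0.00159, edgeR quasi-likelihood test with Benjamini-Hochberg adjustment). At 8 weeks it had 10.8 ± 1.62 CPM in KO-8 (n = 4) and 74.3 ± 6.82 CPM in WT-8 (n = 5), a log2 fold change of -2.77 (SE 0.10, edgeR adjusted p = 6.72e-10). No knockout library overlapped a wild-type library of its time point in Mpc1. The partner genes Myl2, Myl3 and Tnnt2 were among the highly expressed genes of every library. Tnnt2, the cardiac troponin T, does not tell ventricle from atrium. Of the atrial list of 8 genes, Sln, Mybphl and Bmp10 were at or near 0 in all 8-week libraries but not in all 16-week libraries. Their values stand beside those of Myl4 and Myl7.

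Of the cardiac actin and myosin pairs, Acta1 and Myh7 passed the knockout test at 16 weeks, and their partners Actc1 and Myh6 did not. The windows of 250 bases before the RefSeq start sites of these 4 genes are shown. They are from GRCm38.p6, all on the minus strand, written 5′ to 3′ along the gene: Acta1 at chr8:123894776-123895025, Actc1 at chr2:114052876-114053125, Myh7 at chr14:54994627-54994876 and Myh6 at chr14:54966608-54966857. Capitals mark the CArG box, the site known to bind serum response factor, and the MCAT core CATTCC, the site known to bind TEAD factors, on either strand.
Acta1: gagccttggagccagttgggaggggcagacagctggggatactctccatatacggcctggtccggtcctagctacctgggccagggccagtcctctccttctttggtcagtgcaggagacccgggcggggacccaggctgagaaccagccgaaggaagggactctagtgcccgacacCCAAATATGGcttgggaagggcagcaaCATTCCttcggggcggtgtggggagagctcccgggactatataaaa
Actc1: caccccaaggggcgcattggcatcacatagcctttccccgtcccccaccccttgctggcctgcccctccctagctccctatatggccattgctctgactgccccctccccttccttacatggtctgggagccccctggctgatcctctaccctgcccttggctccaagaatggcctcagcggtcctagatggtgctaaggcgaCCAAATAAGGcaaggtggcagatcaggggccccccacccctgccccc
Myh7: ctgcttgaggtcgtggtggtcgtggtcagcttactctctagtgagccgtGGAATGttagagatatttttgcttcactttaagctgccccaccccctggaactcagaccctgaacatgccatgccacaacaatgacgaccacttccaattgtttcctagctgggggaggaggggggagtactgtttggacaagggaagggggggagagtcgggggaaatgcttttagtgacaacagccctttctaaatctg
Myh6: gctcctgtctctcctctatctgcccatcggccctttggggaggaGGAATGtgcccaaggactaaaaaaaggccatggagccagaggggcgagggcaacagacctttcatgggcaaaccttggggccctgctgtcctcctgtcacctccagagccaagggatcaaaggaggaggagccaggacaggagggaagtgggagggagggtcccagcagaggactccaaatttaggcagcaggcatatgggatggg

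In the Acta1 window, the CArG box CCAAATATGG lay at positions -73 to -64 from the RefSeq start site and the MCAT core at -46 to -41. A TATAAA lay at -7 to -2. That start lies upstream of the annotated gene start at 123894751. The Actc1 and Myh6 windows lie inside the annotated genes, which start at 114053548 and 54966927. The sites found in these windows, and their positions, therefore depend on the start chosen. Actc1 had a CArG box, CCAAATAAGG, at -47 to -38 and no MCAT core in its window. Myh7 and Myh6 had no CArG box in theirs, and each held 1 MCAT core on the opposite strand, read as GGAATG, at -201 to -196 in Myh7 and at -206 to -201 in Myh6. CArG boxes and MCAT cores did not overlap each other. Among 32851 windows of the same length, 1.47% held a CArG box and 12.6% an MCAT core on either strand. All 10 genes had a window, and outside these 4 a CArG box was found in Myl7 alone, beside an MCAT core. Where RefSeq listed 2 windows, as for Myh7, the one nearest to the annotated gene start was used.

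Each of the 3 myosin heavy chain genes also carries a microRNA inside the gene on the same strand. Their mature sequences, from RefSeq on GRCm38.p6, are shown because their host genes are the heavy chains compared here, with the seed (bases 2 to 8) in capitals: miR-208a-3p of Myh6 (chr14:54949072-54949093), miR-208b-3p of Myh7 (chr14:54975710-54975731) and miR-499-5p of Myh7b (chr2:155622893-155622913).
miR-208a-3p: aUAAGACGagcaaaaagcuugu
miR-208b-3p: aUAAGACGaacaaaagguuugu
miR-499-5p: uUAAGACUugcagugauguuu

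The microRNAs of Myh6 and Myh7 have the same seed, and that of Myh7b differs from it only at base 8. The libraries were made from total RNA for long transcripts, so the mature microRNAs were not measured. At their loci, Mir208a had 9 to 45 counts in 8-week libraries and 2 to 23 in 16-week libraries, and Mir208b and Mir499 had at most 4 counts in any library.

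The first comparison asks whether loss of Mpc1 was accompanied by a switch between isoforms 16 weeks after induction. Acta1 and Myh7, the fetal members of the actin and myosin pairs, rose in KO-16 ventricles relative to WT-16, and none of the other 7 genes tested passed in either direction. Across all genes, 2.83% of 12597 tested passed the test at 16 weeks, 1.88% higher and 0.945% lower. Of the 10 isoform genes, 9 passed the filter on low counts, and 2 of these 9 were called, both higher. At an unadjusted p under 0.05, edgeR had 3 of them lower. Of all 12597 genes, 3198 had an unadjusted p under 0.05 by edgeR, in either direction. DESeq2 and limma-voom also called 2 isoform genes higher and 0 lower, where they called 9.18% and 2.64% of all genes. No member had every KO-16 library below every WT-16 library, a pattern seen in 2.56% of all genes tested. The median log2 fold change of the 9 was 0.01, equal to the 0.01 of all genes tested. In whole-tissue libraries, fewer cells of a type and less RNA per cell cannot be told apart, which holds for every level given here.

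Acta1, the skeletal alpha-actin (ENSMUSG00000031972, GRCm38 chromosome 8, 123891769 to 123894751, minus strand), had 127, 1774, 925, 861 and 262 CPM in the 5 KO-16 libraries, against 10.4, 6.14, 16.7, 16.8 and 50.5 CPM in the 5 WT-16 libraries. Every KO-16 library lay above every WT-16 library, and the knockout values spanned more than a factor of 10, with replicate 1 lowest. Groups that did not overlap with the knockout higher made up 2.12% of all genes tested. The log2 fold change was 5.32 (SE 0.74, adjusted p = 0.00781, edgeR), a 39.9-fold difference. It ranged from 4.78 to 5.95 when each library was left out, and passed the threshold in all 10 of those fits. Without the libraries over 20% 18S, a choice made after the data were seen that leaves a single WT-16 library and 3 of KO-16, it was 5.81 and edgeR called no gene (adjusted p = 0.968).

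Actc1, the cardiac alpha-actin that supplies most thin filament actin of the adult heart (chromosome 2, 114047282 to 114053548, minus strand), had 2248, 2384, 2579.5, 1914 and 1999 CPM in KO-16, against 1918, 1979, 2106, 1877 and 2188 CPM in WT-16. The groups overlapped, and the log2 fold change was 0.15 (SE 0.13, edgeR adjusted p = 0.478). Counted per kilobase, Acta1 made up 5.60%, 43.9%, 27.4%, 32.2% and 12.1% of the sum of both actins in the KO-16 libraries, against 0.566%, 0.326%, 0.826%, 0.934% and 2.38% in the WT-16 libraries. All KO-16 shares exceeded all WT-16 shares. The log2 ratio of Acta1 to Actc1 was 4.99 higher in KO-16, a 31.8-fold difference in the ratio (exact two-sided permutation test, p = 0.00794). This is the smallest p that 5 libraries against 5 can give, and after Benjamini-Hochberg adjustment over the 14 ratio comparisons it became 0.0556, so 2 comparisons at the smallest p are too few for any of the 14 to pass 0.05. The least deeply covered share, that of WT-16 replicate 2, rested on 34 Acta1 counts, with a Wilson 95% interval of 0.221% to 0.432% for the share of raw counts. That interval covers counting error only and is narrow beside the distance to the lowest knockout share.

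**Figure D1:**
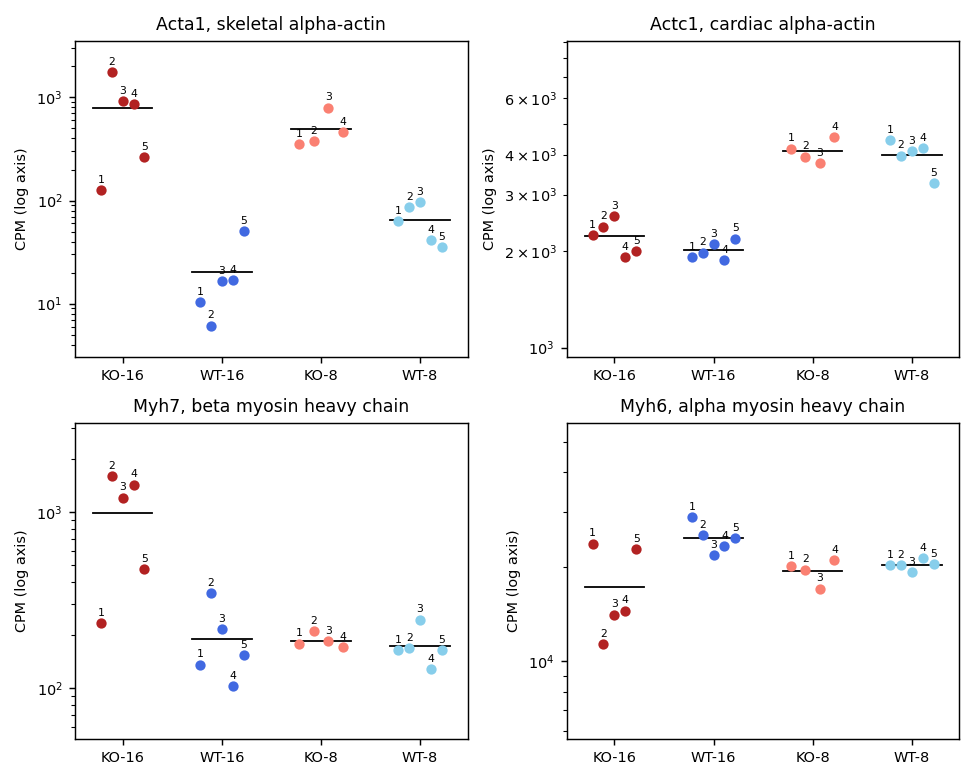
CPM of Acta1, Actc1, Myh7 and Myh6 in each library of KO-16, WT-16, KO-8 and WT-8 on log axes; points are libraries, numbered by replicate, and bars are group means. Acta1 is above all wild-type libraries in every knockout library at both times, and Myh7 reaches 1598 CPM in KO-16 but stays between 171 and 209.8 CPM in KO-8.

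Myh7, the slow beta-myosin heavy chain (ENSMUSG00000053093, chromosome 14, 54970684 to 54994626, minus strand), had 234, 1598, 1203, 1424 and 472 CPM in KO-16, against 135, 346, 214, 103 and 153 CPM in WT-16. Of the KO-16 libraries, 4 lay above every WT-16 library, and replicate 1 lay below WT-16 replicate 2. The log2 fold change was 2.38 (SE 0.47, adjusted p = 0.0278, edgeR), a 5.21-fold difference. The size was stable, 2.14 to 2.70 with each library left out, but the call was not. It was lost without KO-16 replicate 2, 3 or 4 (adjusted p = 0.0621, 0.0692 and 0.0732) and without WT-16 replicate 1, 2, 4 or 5 (0.086, 0.0523, 0.0878 and 0.0711), all by the same edgeR test. With the 18S share as a covariate the log2 fold change was 2.23 (edgeR adjusted p = 0.0893), and without KO-16 replicate 4 and WT-16 replicate 5, the 2 libraries that sex-linked transcripts mark as male, it was 2.14 (edgeR adjusted p = 0.17).

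Myh6, the fast alpha-myosin heavy chain and the main myosin of the adult mouse ventricle (chromosome 14, 54941921 to 54966927, minus strand, next to Myh7), had 23716, 11327, 14088, 14494 and 22836 CPM in KO-16, against 28748, 25227, 21818, 23261 and 24729 CPM in WT-16. KO-16 replicates 2, 3 and 4 were below every WT-16 library, and replicates 1 and 5 were within the WT-16 range. The log2 fold change was -0.51 (SE 0.23, edgeR adjusted p = 0.179), which did not pass. Myh7 made up 0.763%, 9.92%, 6.25%, 7.12% and 1.59% of Myh7 plus Myh6 per kilobase in KO-16, against 0.366%, 1.06%, 0.761%, 0.343% and 0.479% in WT-16. KO-16 replicate 1 lay inside the WT-16 range and the other 4 lay above it. The log2 ratio of Myh7 to Myh6 was 2.75 higher in KO-16 (exact two-sided permutation test, p = 0.0159, adjusted p = 0.0741 over the 14 comparisons). Within the transcripts of Myh6, 19.8% of all stretches of 51 bases, the read length, also occurred in Myh7 transcripts. A read that lies in such a stretch does not by itself tell the 2 genes apart, and how many read pairs this touched was not measured. Myh7 also shared 3.36% of its stretches with the antisense transcript Mhrt.

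Within KO-16, the libraries had the same order in the share of Acta1 and in the share of Myh7: replicates 2, 4, 3, 5 and 1 from highest to lowest. Myh6 was lowest in replicate 2 and highest in replicate 1. Mpc1 had 26.2 CPM in replicate 1, the most of any KO-16 library, and 9.03, 9.25, 15.1 and 15.9 CPM in replicates 2, 3, 4 and 5. Replicate 2, with the highest Acta1 and Myh7, also had the largest total and the lowest 18S share (26914074 counts and 1.71%). The part that residual Mpc1, depth and 18S share had in these differences was not tested.

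**Figure D2:**
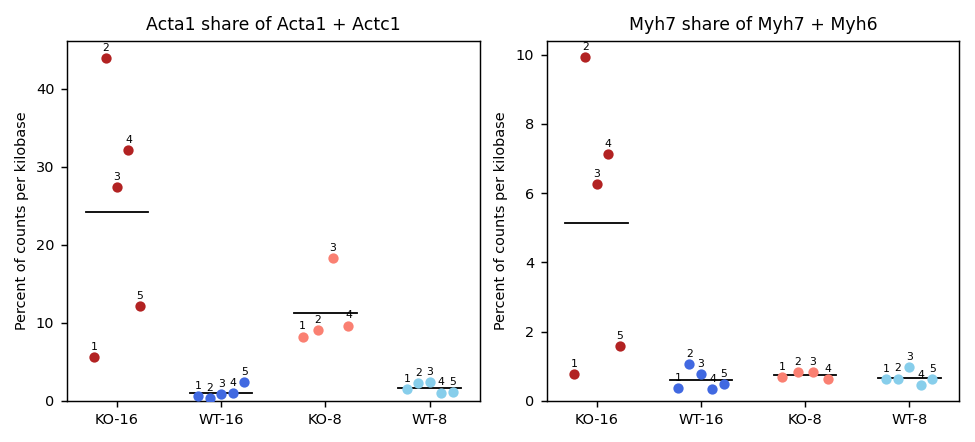
Share of Acta1 in Acta1 plus Actc1 and of Myh7 in Myh7 plus Myh6, in percent of counts per kilobase, in each library; bars are group means and numbers are replicates. The Acta1 share is 5.60% to 43.9% in KO-16 and 8.21% to 18.3% in KO-8, against at most 2.41% in any wild-type library, and the Myh7 share exceeds 1.06% in 4 libraries, all from KO-16.

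Myh7b encodes a further slow myosin heavy chain, in whose gene miR-499 lies (chromosome 2, 155611212 to 155634307, plus strand). It had 80.9, 57.2, 57.8, 43.7 and 41.5 CPM in KO-16, against 80.3, 83.1, 75.2, 57.2 and 101 CPM in WT-16. The groups overlapped, and the log2 fold change of -0.49 (SE 0.19, edgeR adjusted p = 0.131) did not pass. Its ratio to Myh6 differed by 0.06 on the log2 scale (exact two-sided permutation test, p = 0.873), with both genes at lower mean levels in KO-16.

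Tnni3, the cardiac troponin I that holds the thin filament inhibited at low calcium (chromosome 7, 4518305 to 4524229, minus strand), had 3369, 1862, 1396, 2207 and 2373 CPM in KO-16, against 3458, 2879, 3359.9, 3165 and 3134 CPM in WT-16. KO-16 replicates 2 to 5 lay below every WT-16 library, and replicate 1 lay within their range. The log2 fold change was -0.51 (SE 0.20, edgeR adjusted p = 0.133). Myh6, Myh7b and Tnni3 were called lower in 1 fit to all 19 libraries, with adjusted p = 0.0326, 0.0323 and 0.0269, and Myh7b and Tnni3 also without KO-16 replicate 1 (0.0221 and 0.0148), all by the edgeR test. The fit to all 19 libraries called 11.2% of its 15503 genes higher and 9.32% lower at 16 weeks, and the fit without KO-16 replicate 1 called 7.17% higher and 6.27% lower. The fit to the 10 libraries of 16 weeks did not call them.

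Tnni1, the slow skeletal troponin I of the fetal heart (chromosome 1, 135779434 to 135810989, plus strand), was near the limit of detection. It had 2, 3, 1, 0 and 0 counts in KO-16, against 0, 1, 3, 1 and 0 in WT-16, and did not pass the filter. Its share of Tnni1 plus Tnni3 per kilobase was at most 0.00257% in KO-16 and at most 0.00359% in WT-16. A difference between the groups was not detectable at this depth.

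Tnnt1, the slow skeletal troponin T (chromosome 7, 4504570 to 4516382, minus strand), had 12.97, 9.20, 9.68, 16.1 and 13.8 CPM in KO-16, against 11.6, 13.4, 9.34, 14.6 and 12.4 CPM in WT-16. The groups overlapped, with a log2 fold change of 0.01 (SE 0.18, edgeR adjusted p = 0.982). It supplied 0.658% to 0.936% of Tnnt1 plus Tnnt2 per kilobase in KO-16 and 0.536% to 0.836% in WT-16, with Tnnt2, the cardiac troponin T, as the main gene in every library. The 3 partners did not pass the test at 16 weeks, with log2 fold changes of -0.23 for Tnnt2 (SE 0.17, adjusted p = 0.409), -0.17 for Myl2 (SE 0.13, adjusted p = 0.444) and 0.31 for Myl3 (SE 0.17, adjusted p = 0.255).

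The atrial light chains varied widely among the 16-week libraries of both genotypes. Myl4, the atrial essential light chain (chromosome 11, 104550663 to 104595753, plus strand), had 51.7, 1.14, 0.987, 103 and 24.7 CPM in KO-16, against 1.01, 1.08, 112, 21.8 and 4.36 CPM in WT-16. Myl7, the atrial regulatory light chain (chromosome 11, 5896637 to 5898782, minus strand), had 34.2, 0.558, 0.617, 48.1 and 13.6 CPM in KO-16, against 0, 0, 87.7, 15.6 and 2.53 CPM in WT-16. KO-16 replicates 1, 4 and 5 and WT-16 replicates 3 and 4 were high in both genes. The log2 fold changes were 0.23 for Myl4 (SE 1.16, edgeR adjusted p = 0.92) and -0.30 for Myl7 (SE 1.19, edgeR adjusted p = 0.896), with SEs that exceed the values.

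Of the other atrial genes, Sln and Mybphl were highest in the same libraries, and the rest of the list did not all follow them. Sln, the sarcolipin gene of the atria, had 12.6, 0, 0, 16.5 and 2.49 CPM in KO-16, against 0, 0, 20.4, 5.32 and 0.919 CPM in WT-16. Mybphl had 4.56, 0.195, 0, 10.4 and 1.49 CPM in KO-16, against 0.505, 0, 10.6, 1.33 and 0.459 CPM in WT-16. Bmp10, a growth factor of the atria, had 348 CPM in KO-16 replicate 4, 26.8 CPM in WT-16 replicate 4 and at most 0.28 CPM in the other libraries. At 8 weeks Sln did not exceed 0.521 CPM. Kcnk3, also on the atrial list, had 52.2 ± 13.9 CPM in KO-16 and 55.6 ± 5.31 CPM in WT-16. Nr2f1 had 1.84 ± 1.26 and 1.65 ± 0.915 CPM in these groups. The summed level of the 8 atrial genes was 888 to 3413 CPM in KO-16 and 457 to 1070.3 CPM in WT-16. Most of the sum came from 2 of the 8 genes. Pam, which encodes a peptide-amidating enzyme and was singled out after its values were seen, had 531 to 1210.0 CPM in KO-16 and 364 to 629 CPM in WT-16. Nppa, the atrial natriuretic peptide gene, which is also raised in stressed ventricle, had 264, 1813, 2349, 1374 and 207 CPM in KO-16, against 44.0, 26.005, 329, 112 and 44.1 CPM in WT-16. It rose in KO-16 (log2 fold change 3.42, SE 0.80, edgeR adjusted p = 0.0407, with the call held in 3 of 10 fits that left out a library). Of the 8, 6 were tested at 16 weeks and 2 were called, both higher. At 8 weeks 5 were tested and 2 were called, both higher, where 4.3% of all genes were called higher. These were Nppa (log2 fold change 2.22, SE 0.21, edgeR adjusted p = 4.14e-05) and Dkk3 (0.84, SE 0.24, edgeR adjusted p = 0.0415). The Nppa call at 8 weeks held in all 9 fits that left out a library.

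**Figure D3:**
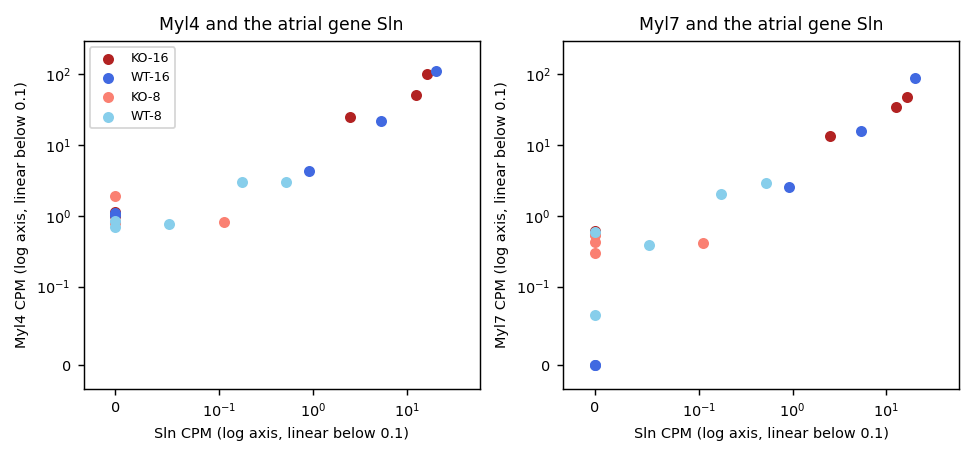
Myl4 and Myl7 against Sln in the 19 libraries, in CPM, on axes that are logarithmic above 0.1 and linear below; each point is a library. The libraries over 1 CPM of Sln are 3 from KO-16 and 2 from WT-16, and they hold the highest Myl4 and Myl7 values.

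Leaving out the 5 libraries with more than 1 CPM of Sln, a choice made after the data were seen, left KO-16 replicates 2 and 3 and WT-16 replicates 1, 2 and 5. Acta1 and Myh7 were still called higher by edgeR there, and Myh6 (log2 fold change -1.06, adjusted p = 0.000918), Tnni3 (-0.96, adjusted p = 0.00193) and Myh7b (-0.63, adjusted p = 0.014) were called lower. In that fit 12.8% of all 13274 genes tested were called higher and 12.8% lower, so these calls stand against a much larger background than the 2.83% with all 16-week libraries. This subset keeps 2 knockout libraries, which had the 2 lowest Mpc1 levels of KO-16, and 18S shares of 1.71% and 5.66%, against 39.1%, 25.2% and 29.7% in the 3 WT-16 libraries kept. What fewer atrial transcripts, lower residual Mpc1 and the 18S share each do to these values cannot be told apart in it. Acta1 was 1774 and 925 CPM in these 2 KO-16 libraries, which had no Sln count and the highest Nppa levels of all 19. Over the 19 libraries, the log2 CPM of Acta1 had a Pearson r of -0.14 with that of Sln and 0.71 with that of Nppa, given as a description.

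The second comparison asks the same question 8 weeks after induction, where the spread between libraries was smaller (common coefficient of variation 0.093, against 0.228 at 16 weeks). Acta1 was the only member of the list that passed the test in KO-8 relative to WT-8. Across all genes, 8.21% of 15173 tested were called, 4.3% higher and 3.91% lower. Of the 9 isoform genes tested, 1 was called higher and 0 lower by edgeR, DESeq2 and limma-voom alike. At an unadjusted p under 0.05, 0 were lower as well. Of all 15173 genes, 3524 had an unadjusted p under 0.05 by edgeR, in either direction. DESeq2 called 8.9% of all genes at this time and limma-voom 8.06%. No member had every KO-8 library below every WT-8 library, which 5.85% of all genes had. The median log2 fold change of the 9 was -0.05, against 0 over all genes.

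At 8 weeks Acta1 had 354, 375, 799 and 458 CPM in the 4 KO-8 libraries, against 63.4, 86.9, 96.0, 41.4 and 35.3 CPM in the 5 WT-8 libraries. No libraries overlapped, which held for 5.01% of all genes in that direction. The log2 fold change was 2.96 (SE 0.30, adjusted p = 7.27e-05, edgeR), a 7.77-fold difference, and it stayed past the threshold in all 9 fits that left out a library. Actc1 had 4177, 3943, 3759 and 4532 CPM in KO-8, against 4445, 3975, 4093, 4188 and 3263 CPM in WT-8 (log2 fold change 0.05, SE 0.08, edgeR adjusted p = 0.769). The groups overlapped.

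Acta1 made up 8.21%, 9.10%, 18.3% and 9.63% of both actins per kilobase in KO-8, against 1.48%, 2.25%, 2.41%, 1.03% and 1.13% in WT-8. All 4 KO-8 shares lay above all 5 WT-8 shares. The log2 ratio of Acta1 to Actc1 was 2.93 higher in KO-8, a 7.60-fold difference in the ratio (exact two-sided permutation test, p = 0.00794, the smallest that 4 against 5 can give, and adjusted p = 0.0556 over the 14 comparisons).

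Myh7 had 178, 209.8, 184 and 171 CPM in KO-8, against 164, 168, 244, 127 and 163 CPM in WT-8. The KO-8 values lay above 4 of the 5 WT-8 libraries and below the remaining one, replicate 3, and the log2 fold change was 0.11 (SE 0.14, edgeR adjusted p = 0.693). Its share of Myh7 plus Myh6 was 0.685%, 0.829%, 0.834% and 0.630% in KO-8, against 0.625%, 0.642%, 0.978%, 0.463% and 0.620% in WT-8. The log2 ratio differed by 0.19 (exact two-sided permutation test, p = 0.421). Myh6 had 20149, 19598, 17036 and 20992 CPM in KO-8, against 20309, 20294, 19278, 21329 and 20394 CPM in WT-8 (log2 fold change -0.05, SE 0.06, edgeR adjusted p = 0.657).

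The remaining members at 8 weeks had overlapping groups. Tnni3 had 2916, 2485, 2182 and 2541 CPM in KO-8, against 2861, 2663, 2533, 2832 and 2516 CPM in WT-8 (log2 fold change -0.07, SE 0.07, edgeR adjusted p = 0.611). Myh7b had 70.3, 79.0, 69.9 and 61.9 CPM in KO-8, against 67.6, 85.3, 75.3, 86.0 and 83.2 CPM in WT-8 (log2 fold change -0.17, SE 0.08, edgeR adjusted p = 0.248). Tnnt1 ranged from 7.36 to 10.7 CPM in KO-8 and from 7.45 to 9.11 CPM in WT-8 (log2 fold change 0.04, SE 0.11, edgeR adjusted p = 0.852), and Tnni1 had 1 to 5 counts in KO-8 and 1 to 6 in WT-8.

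The atrial light chains were low at 8 weeks in both genotypes. Myl4 had 1.93, 0.815, 0.799 and 0.821 CPM in KO-8, against 0.706, 0.837, 3.01, 3.01 and 0.777 CPM in WT-8 (log2 fold change -0.55, SE 0.48, edgeR adjusted p = 0.544). Myl7 was 0.294 to 0.530 CPM in KO-8 and 0.0642 to 2.89 CPM in WT-8 (log2 fold change -1.40, SE 0.73, edgeR adjusted p = 0.274). WT-8 replicates 3 and 4 were the highest in both genes and had the most Sln counts of that time, 4 and 13. The partners Tnnt2, Myl2 and Myl3 had log2 fold changes of -0.09, 0.00 and 0.04 at 8 weeks, and none passed.

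**Figure D4:**
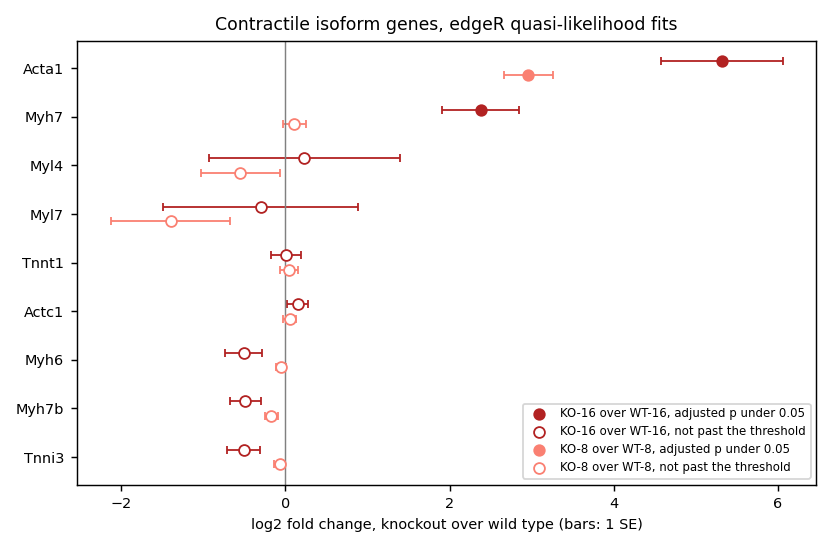
Log2 fold change, knockout over wild type, of the isoform genes at 16 and at 8 weeks from the edgeR fits, with bars of 1 SE and filled points where adjusted p was under 0.05. Acta1 is 5.32 at 16 weeks and 2.96 at 8 weeks, Myh7 is 2.38 and 0.11, and Myl4 and Myl7 have the widest bars.

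Whether the knockout effect differed between times was tested as an interaction in 1 edgeR fit to all 19 libraries. Of 15503 genes, 0 (0%) passed, with 2000 at an unadjusted p under 0.05, and DESeq2 called 15 higher and 8 lower. The effect on Acta1 was 2.38 larger on the log2 scale at 16 weeks than at 8 weeks (SE 0.80, unadjusted p = 0.0074, edgeR adjusted p = 0.312). That on Myh7 was 2.27 larger (SE 0.55, unadjusted p = 0.000514, edgeR adjusted p = 0.265). Neither difference passed the threshold with all libraries. Without KO-16 replicate 1 both did (edgeR adjusted p = 0.0375 for Acta1 and 0.00578 for Myh7), and without KO-16 replicate 5 Myh7 did (edgeR adjusted p = 0.039). With no filter on low counts Myh7 passed as well (edgeR adjusted p = 0.0134). Those 3 fits called 2.13%, 0.6% and 0.116% of all genes higher. The other 7 members tested had differences of -0.45 to 1.02, none of which passed in any of these fits.

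In level per kilobase, which depends on the annotated exon length of each gene, Myh6 was the most abundant of the 10 in every group and Tnni1 the least. In KO-16 the order after Myh6 (2571 ± 833 CPM per kb, SD, n = 5) was Actc1 (1375 ± 169), Tnni3 (1086 ± 355), Acta1 (514 ± 426) and Myh7 (114 ± 69.7), and each of these 4 overlapped its neighbour. In WT-16 Myh6 (3681 ± 386), Tnni3 (1551 ± 109) and Actc1 (1244 ± 80.5) were followed after a gap by Myl7 (35.9 ± 64.0), Myh7 (22.1 ± 11.2) and Acta1 (13.1 ± 11.5), which overlapped each other. In KO-8 Myh6 (2891 ± 253) and Actc1 (2536 ± 206) overlapped, and Tnni3 (1227 ± 146), Acta1 (323 ± 134) and Myh7 (21.5 ± 1.98) came next without overlap. In WT-8 the order was Myh6 (3021 ± 108), Actc1 (2468 ± 274), Tnni3 (1299.6 ± 78.3), Acta1 (42.1 ± 17.5) and Myh7 (20.1 ± 4.98), with overlap only between the last pair. Acta1 thus ranked 4th in KO-16, KO-8 and WT-8 and 6th in WT-16.

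Likeness of log2 CPM over all 19 libraries was ranked among genes past the filter, leaving out predicted, clone and pseudogene names. The genes most like Acta1 were Prnp (Pearson r = 0.971), Lman1l (0.951) and Rrp12 (0.948). Those most like Myh7 were Kif1a (0.946), Arfgap3 (0.928) and Myo1d (0.926). For Myl4 they were Sln (0.979), Fgf12 (0.959) and Myl7 (0.951). Myh6 and Tnni3 varied together (r = 0.84), and both ran against Acta1 (r = -0.80 and -0.75). These values describe 19 libraries that share genotype, time and library set, and carry no p. Tnni3 was most like Pdha1, Acat1 and Ldhb (r = 0.944, 0.932 and 0.931), and Actc1 most like Napa, Fbxw5 and Cox8b (0.974, 0.974 and 0.972).

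A list of 32 other genes of the thick and thin filaments was read beside the members. It includes the partners Myl2, Myl3 and Tnnt2 and the atrial gene Mybphl, which are also reported above. Of the 32 genes, among them tropomyosins, titin and the myosin binding proteins, 19 were tested at 16 weeks and edgeR called 0. At an unadjusted p under 0.05 edgeR had 7 (5 higher and 2 lower), against 3198 of all 12597 genes in either direction. DESeq2 called 2 higher and 1 lower at that time, and limma-voom 0. At 8 weeks 2 of 20 were called higher and 1 lower by edgeR, where 4.3% of all genes were called higher and 3.91% lower. Myl9, a smooth muscle and non-muscle regulatory light chain, had 17.5 ± 2.64 CPM in KO-8 (n = 4) and 11.96 ± 1.39 CPM in WT-8 (n = 5), a log2 fold change of 0.56 (SE 0.10, edgeR adjusted p = 0.00397). Tpm2, beta-tropomyosin, had 12.7 ± 1.53 CPM in KO-8 and 9.46 ± 0.778 CPM in WT-8 (log2 fold change 0.44, SE 0.09, edgeR adjusted p = 0.0098). Mylk3, the cardiac myosin light chain kinase, fell to 385 ± 38.9 CPM in KO-8, against 503 ± 28.0 CPM in WT-8 (log2 fold change -0.37, SE 0.07, edgeR adjusted p = 0.00413). At 16 weeks the same 3 had log2 fold changes of 1.03, 0.72 and -0.49, which did not pass (edgeR adjusted p = 0.0749, 0.0705 and 0.117). In 1 fit to all 19 libraries, with a common spread, the 8-week calls of these 3 genes were lost (edgeR adjusted p = 0.573, 0.489 and 0.497). The fetal and fast skeletal myosins Myh1, Myh2, Myh3, Myh4 and Myh8 were too low to be tested at either time. Myh8 had 0.504 ± 0.428 CPM in KO-16 (at most 37 counts), against 0.0184 ± 0.0411 CPM in WT-16 (at most 2 counts). In KO-8 it had 0.104 ± 0.0852 CPM, against 0.00518 ± 0.0116 CPM in WT-8. The others had at most 7 counts in any library.

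Of 34 regulators known to act on these genes, 32 were tested at each time. At 16 weeks 2 were called higher and 1 lower by edgeR, 2 and 5 by DESeq2, and 0 and 1 by limma-voom. These tools called 2.83%, 9.18% and 2.64% of all genes, in the same order. At an unadjusted p under 0.05 edgeR had 5 regulators higher and 9 lower, against 3198 of all 12597 genes in either direction. Dio2, the deiodinase that makes active thyroid hormone, had 25.6 ± 27.5 CPM in KO-16 and 1.98 ± 1.52 CPM in WT-16 (n = 5 each; log2 fold change 3.42, SE 0.73, edgeR adjusted p = 0.0333). Rcan1, a calcineurin target and regulator, had 142 ± 109 CPM in KO-16 and 38.7 ± 9.47 CPM in WT-16 (log2 fold change 1.89, SE 0.47, edgeR adjusted p = 0.0494). Nfatc2, a calcineurin-responsive factor, fell to 3.92 ± 0.766 CPM in KO-16, against 8.81 ± 2.19 CPM in WT-16 (log2 fold change -1.12, SE 0.21, edgeR adjusted p = 0.0249). With each library left out, the 3 calls held in 3, 2 and 4 of 10 edgeR fits, and the highest adjusted p was 0.0996, 0.123 and 0.0756. The covariate for 18S ended all 3 calls, and so did omitting the male libraries.

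At 8 weeks 1 regulator was called by edgeR, and DESeq2 called 2 more, both higher. Of all genes, edgeR called 8.21% and DESeq2 8.9% at that time. At an unadjusted p under 0.05 edgeR had 3 regulators higher and 5 lower, against 3524 of all 15173 genes in either direction. Myocd, the myocardin gene, whose product is a coactivator of serum response factor at CArG boxes, fell to 50.4 ± 10.1 CPM in KO-8, against 70.1 ± 3.69 CPM in WT-8 (log2 fold change -0.47, SE 0.10, edgeR adjusted p = 0.0121, and 0.639 in 1 fit to all 19 libraries). At 16 weeks it had a log2 fold change of -0.76 (SE 0.26, edgeR adjusted p = 0.106). Srf, serum response factor itself, had log2 fold changes of 0.29 at 16 weeks and 0.10 at 8 weeks (edgeR adjusted p = 0.129 and 0.576). Tead1, a TEAD factor of the MCAT site, had -0.21 and -0.13 (0.414 and 0.455), and the thyroid hormone receptor Thra had -0.11 and 0.01 (0.563 and 0.929). Mhrt, the transcript antisense to Myh7, had log2 fold changes of -0.37 at 16 weeks and 0.08 at 8 weeks (edgeR adjusted p = 0.369 and 0.565).

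Markers of other cell types were read beside the actin and myosin results. The 13 fast skeletal muscle genes, whose tissue also uses Acta1, summed to 10.7 to 32.0 CPM in KO-16 and 17.2 to 29.3 CPM in WT-16, and to 27.7 to 31.2 CPM in KO-8 and 23.1 to 33.2 CPM in WT-8. Most of these sums came from Myl1 and Mybpc2. Myl1 had means of 12.2 CPM in KO-16, 11.5 in WT-16, 13.5 in KO-8 and 10.9 in WT-8. Mybpc2 had 6.38, 7.93, 13.2 and 14.4 CPM in the same groups. Of the 13 genes, Myh1, Myh2 and Myh4 had at most 7 counts in any library. The 8 smooth muscle genes summed to 764 to 1108 CPM in KO-16 and 872 to 972 CPM in WT-16, with 1 called higher at 16 weeks, and 3 higher and 1 lower at 8 weeks. The 8 fibroblast genes summed to 845 to 1632 CPM in KO-16 and 634 to 887 CPM in WT-16. By edgeR 3 of 7 tested were called higher at 16 weeks and 4 of 8 at 8 weeks, and by DESeq2 5 and 3. At an unadjusted p under 0.05 edgeR had 5 higher at 16 weeks and 6 at 8 weeks, with 0 lower at both times. The 9 genes of the ventricular list include general cardiac muscle genes such as Tnnt2. They summed to 13654 to 18252 CPM in KO-16 and 16544 to 18323 CPM in WT-16. At 16 weeks 0 were called by edgeR (3 at an unadjusted p under 0.05, and 1 lower by DESeq2). At 8 weeks 1 was called higher and 1 lower. The 6 slow skeletal genes, which include Myh7, had 1 called higher at 16 weeks by edgeR, Myh7 itself, 2 by DESeq2 and 1 by limma-voom. At 8 weeks each of the 3 tools called 0 of them, with 1 higher and 1 lower at an unadjusted p under 0.05. The 6 endothelial genes had 1 called higher at 16 weeks and 3 at 8 weeks by edgeR, and 3 at each time by DESeq2. By limma-voom 0 and 3 were called higher. At an unadjusted p under 0.05 edgeR had all 6 higher at both times. The 7 macrophage genes had 0 called by edgeR at either time, with 2 at 16 weeks and 1 at 8 weeks higher at an unadjusted p under 0.05, and DESeq2 called the same numbers. The 5 erythroid genes had 0 called by edgeR at 16 weeks (4 higher at an unadjusted p under 0.05, 1 higher by DESeq2) and 1 lower at 8 weeks. At an unadjusted p under 0.05 edgeR had all 5 lower at 8 weeks, the opposite direction. Over all genes, edgeR had 3198 of 12597 at an unadjusted p under 0.05 at 16 weeks and 3524 of 15173 at 8 weeks, in either direction. The part of these cell types in the actin and myosin differences was not tested.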

How the data were processed

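Ventricular RNA depleted of ribosomal RNA was sequenced as stranded libraries with paired reads of 51 bases, per the labels' protocols. The deposited values are counts of read pairs per gene, which per the file headers were made with featureCounts 1.6.3 in paired mode (strand setting 2, largest overlap) on Ensembl 96. The build is GRCm38 per the submitters' processing notes, where STAR, RSEM, SAMtools, FastQC and cutadapt 1.16 also appear without a stated role. The headers set no option for reads that match several genes. Each file held 55536 genes, all matched to GENCODE M21 by identifier and position. The 2 files of each 16-week sample were summed. No sample was left out.

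Counts were tested with edgeR 4.0.16 (quasi-likelihood, TMM, filterByExpr) in R 4.3.3, with a fit for each time, an interaction in 1 fit to all 19 libraries, Benjamini-Hochberg adjustment over all genes tested and a threshold of 0.05. Fold changes keep the default prior count of edgeR, and each SE is |log2 fold change| / √F. Isoform ratios used counts per kilobase of the exon length given in the files. That length covers all annotated exons, so it sets the level of a share but not the difference between groups in a log2 ratio. A pseudocount of 1 was added for Tnni1 over Tnni3 and Myl7 over Myl2 at 16 weeks, where a library had 0 counts. Correlations used log2 CPM with a prior count of 2. Alternatives were DESeq2 1.42.0, limma 3.58.1 (voom), other factors, filters, files and covariates, and each library left out. Ratios, sequences and figures were made in Python 3.11.15 (scipy 1.17.1, pandas 2.3.3, numpy 2.4.6, matplotlib 3.10.9).

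The members, lists, tests and named genes were chosen with earlier results of these data known. All members were named, with up to 4 genes per list by smallest p, the 3 genes most like a member, and Srf, Tead1, Thra and Mhrt for the sites and genes shown. The leave-out by Sln and by an 18S share over 20% was added after the data were seen. On simulated counts with 1.5-, 2- and 4-fold changes, the 16-week fit recovered 26.9%, 68.7% and 95.5% with 6 false calls in 133, the 8-week fit 77.6%, 94% and 100% with 7 in 188, and the interaction fit 28.4%, 44.8% and 90.9% with 7 in 116.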

Additional observations from a re-analysis of the deposited data

Results flagged for a closer look

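The values of each isoform gene and each share were screened within the 4 groups for a library far from the others, 68 sets of values in all, and 8 stood out. For normally distributed values, chance alone marks about 1 set in 20. Several of these sets are skewed, so that rate need not hold here, and several share a library. Acta1 had 50.5 CPM in WT-16 replicate 5, against 6.14 to 16.8 CPM in the other WT-16 libraries, and that replicate is 1 of the 2 libraries marked as male by sex-linked transcripts. In KO-8 replicate 3, Acta1 made up 18.3% of both actins per kilobase, against 8.21% to 9.63% in the other KO-8 libraries.

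The other 6 concern the atrial light chains. WT-16 replicate 3 had 112 CPM of Myl4, against 1.01 to 21.8 CPM in the other WT-16 libraries, and 87.7 CPM of Myl7, against 0 to 15.6 CPM. There Myl4 made up 5.76% of Myl4 plus Myl3 per kilobase, against 0.0687% to 1.38%, and Myl7 made up 6.13% of Myl7 plus Myl2, against 0% to 1.19%. This library also had the most Sln, 20.4 CPM. KO-8 replicate 1 had 1.93 CPM of Myl4, against 0.799 to 0.821 CPM in the other KO-8 libraries, or 0.0530% of Myl4 plus Myl3, against 0.0221% to 0.0269%. It had no Sln count.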

How the results depend on the processing

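No paired analysis was possible because the replicate numbers used here follow the order of accession and the titles carry numbers that no other group shares. The call of Acta1 at 16 and at 8 weeks was kept under every alternative run except the removal of libraries over 20% 18S. That removal leaves WT-16 replicate 3 as the only wild-type library, which is then assumed to vary like the knockout libraries, and it gave 0 genes higher, 0 lower and 0 isoform genes higher at 16 weeks (5.81 for Acta1, adjusted p = 0.968). Small totals limit Tnni1 at both times and Myl7 at 8 weeks.

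At 16 weeks, genes called higher and lower numbered 657 and 377 with no filter, 628 and 527 by DESeq2, 106 and 226 by limma-voom, 1735 and 1445 in 1 fit to all 19 libraries, 21 and 7 when the 18S share was a covariate, 7 and 3 when the male libraries were omitted, and 1696 and 1705 without the libraries over 1 CPM of Sln. Isoform genes called higher fell to 1 under each of the covariate and the omission of males. Isoform genes called lower were 3 in 1 fit to all libraries and 3 without the Sln libraries. With each library left out, genes higher ran from 21 (without WT-16 replicate 2) to 1008 (without KO-16 replicate 5), genes lower from 8 to 846, isoform genes higher from 1 to 2 and isoform genes lower from 0 to 2. At 8 weeks, 1 fit to all libraries called 17 higher and 14 lower, no filter called 1 isoform gene lower (Myl7, adjusted p = 0.0101), and leaving out each library gave 462 to 614 genes higher and 394 (without KO-8 replicate 3) to 549 lower. For the difference between times, no filter gave 38 higher, 5 lower and 1 isoform gene higher, DESeq2 gave 15 and 8, and leaving out each library gave 0 to 330 higher, 0 to 283 lower and 0 to 2 isoform genes higher. Among the causes, fewer libraries or a shared spread follow from how these alternatives are built, and no other was tested.

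Signs turned in genes and ratios that never passed the test at these settings. For Myl4 at 16 weeks the log2 fold change was -1.14 by limma-voom, -0.91 without the male libraries, -0.98 without the Sln libraries and -2.66 without those over 20% 18S. For Tnnt1 at 16 weeks it was -0.01 by limma-voom, -0.02 from the earlier file alone, -0.10 without the male libraries and -0.42 without the Sln libraries, and for Myl7 it was 0.17 with the 18S covariate. Without the libraries over 20% 18S, Myl9 was -0.13 and Mhrt 0.05. At 8 weeks Myl2 was 0.00 with no filter and -0.01 in 1 fit to all libraries. By limma-voom with quality weights the difference between times was -1.12 for Myl4 and -0.83 for Myl7. The log2 ratio of Tnni1 to Tnni3 at 8 weeks was 0.01 with a pseudocount of 1, and that of Myl4 to Myl3 at 16 weeks -0.47 without the male libraries and -1.23 without the Sln libraries. With each library left out, log2 fold changes ran, at 16 weeks, from -0.66 to 2.26 for Myl4, -0.96 to 1.96 for Myl7 and -0.10 to 0.11 for Tnnt1. At 8 weeks they ran from -0.01 to 0.09 for Actc1, -0.09 to 0.00 for Myh6, -0.06 to 0.04 for Myl2, 0.00 to 0.10 for Myl3 and -0.07 to 0.11 for Tnnt1. The difference between times ran from -0.18 to 2.78 for Myl4 and -0.15 to 0.09 for Tnnt1. Ratios at 16 weeks ran from 4.59 to 5.52 for Acta1 over Actc1, 2.36 to 3.32 for Myh7 over Myh6, -0.10 to 0.27 for Myh7b over Myh6 and -0.32 to 1.44 for Myl4 over Myl3, and at 8 weeks from -0.64 to 0.29 for Tnni1 over Tnni3.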
